A study of Mus musculus with 8 samples.

Results

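Long noncoding RNAs of the heart were followed through 7 genes, H19, Meg3, Rian, Mirg, Malat1, Neat1 and Gas5, which were chosen by name from the 55679 genes of the deposited expression table. All 7 passed the filter on low values. The RNA came from the left ventricle of male wild-type C57BL/6J mice and was read by RNA-seq, with 4 libraries from mice given saline (control) and 4 from mice given angiotensin II (ANG II, a pressor peptide hormone) at 1500 ng/kg/min. Both groups received their infusion for 7 days from an osmotic mini-pump under the skin, carried no genetic change, and had their hearts flushed with saline before the ventricle was taken. The age of the mice was not given in the sources used here. The comparison asked how the level of each RNA differed between the ANG II and the control left ventricle.

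Long noncoding RNAs are transcripts that are not translated into a long protein. H19 and Meg3 are imprinted, that is, transcribed from the maternal chromosome while a growth-related neighbour (Igf2 or Dlk1) is transcribed from the paternal one. Meg3, Rian and Mirg lie in a row in the Dlk1-Dio3 domain, and Rian is a host of small nucleolar RNAs (snoRNAs) and microRNAs, and Mirg of microRNAs. Malat1 and Neat1 are neighbouring nuclear RNAs; Malat1 gathers in nuclear speckles, which store splicing factors, and Neat1 builds paraspeckles. Gas5 carries snoRNAs in its introns, and its spliced RNA is broken down by nonsense-mediated decay when ribosomes translate it.

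In the GENCODE M21 annotation (build GRCm38), Meg3 spanned chr12:109541001-109571726, Rian chr12:109603940-109661716 and Mirg chr12:109729764-109749460, all transcribed in the same direction. H19 lay at chr7:142575529-142578143 on the minus strand and Gas5 at chr1:161034422-161038539 on the plus strand. Malat1 (chr19:5795690-5802672) and Neat1 (chr19:5824708-5845478) both lay on the minus strand, 22035 bases apart. The annotation held 7 transcripts of H19, 11 of Meg3, 20 of Rian, 12 of Mirg, 4 each of Malat1 and Neat1, and 25 of Gas5. Other genes on the opposite strand covered 5.73% of the exon bases of H19, 6.79% of those of Meg3 and 6.49% of those of Malat1; the use of strand in counting was not given in the sources used here, so reads could not be told apart there.

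The microRNAs that sit inside these genes are shown because they are the part of H19, Meg3, Rian and Mirg with a known sequence-based action: bases 2 to 8, the seed, in capitals below, pair with target messenger RNAs. RefSeq (GRCm38.p6) placed 2 mature microRNAs within H19, 3 within Meg3, 6 within Rian and 26 within Mirg. The H19 pair has different seeds.
miR-675-5p: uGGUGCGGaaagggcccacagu
miR-675-3p: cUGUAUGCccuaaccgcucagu

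Meg3 and Rian carry 3 and 6 mature sequences, of which those from 1 hairpin of Rian (miR-370) and all from Meg3 are given.
miR-1906: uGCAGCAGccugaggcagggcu
miR-770-5p: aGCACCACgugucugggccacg
miR-770-3p: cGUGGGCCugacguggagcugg
miR-370-5p: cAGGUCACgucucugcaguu
miR-370-3p: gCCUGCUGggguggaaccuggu

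The 26 mature sequences of Mirg had 25 different seeds. The shared seed belongs to miR-453 and miR-496a-5p, which are printed with 3 others that do not share it.
miR-453: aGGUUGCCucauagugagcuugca
miR-496a-5p: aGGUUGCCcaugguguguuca
miR-134-5p: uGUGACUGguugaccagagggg
miR-154-5p: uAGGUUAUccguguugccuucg
miR-410-3p: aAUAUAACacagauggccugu

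Mature microRNAs were not measured, because the libraries were made from RNA enriched on oligo(dT) beads. The microRNA precursors listed in the table inside H19 (1), Meg3 (2) and Rian (4) were at 0 in all 8 libraries. Of 15 inside Mirg, 5 were above 0 in any library, with at most 2 fragments. The 13 snoRNAs inside Rian and the 10 inside Gas5 were also at 0. What follows is thus about the long host RNAs alone.

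The promoters of Meg3 and Gas5 are shown because both RNAs were higher in ANG II and both windows hold the letters TGACGTCA (a cAMP response element, or CRE, which reads the same on both strands). RefSeq promoter windows run from 250 bases before to 50 bases after a gene's start, and 5 of the 7 genes matched an entry; H19 and Neat1 did not. In the Meg3 window, at chr12:109540746-109541045 on the plus strand (GRCm38.p6), the CRE letters began at -57 relative to the start and TATAAA, letters of the core promoter, began at -25. Capitals mark the CRE letters and the TATAAA matches on either strand, which overlap.
Meg3 promoter: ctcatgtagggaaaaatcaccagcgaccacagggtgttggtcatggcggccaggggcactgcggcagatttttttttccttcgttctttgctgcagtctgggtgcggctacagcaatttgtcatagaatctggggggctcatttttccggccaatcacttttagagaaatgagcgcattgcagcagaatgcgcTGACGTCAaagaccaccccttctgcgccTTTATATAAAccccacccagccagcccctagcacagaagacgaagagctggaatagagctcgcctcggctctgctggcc

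In the Gas5 window, at chr1:161034916-161035215 on the plus strand (GRCm38.p6), the CRE letters (capitals) began at -46.
Gas5 promoter: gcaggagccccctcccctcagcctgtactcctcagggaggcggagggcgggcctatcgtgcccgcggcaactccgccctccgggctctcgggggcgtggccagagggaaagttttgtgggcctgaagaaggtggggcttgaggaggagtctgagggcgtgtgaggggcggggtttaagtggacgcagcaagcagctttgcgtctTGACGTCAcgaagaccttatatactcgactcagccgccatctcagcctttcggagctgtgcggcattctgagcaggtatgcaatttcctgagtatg

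Across 32851 promoter windows of this length, 1.79% held TGACGTCA, 13.6% held TATAAA and 20.8% held the shorter TGACG, which is part of the full letters, on either strand. The windows of Rian and Mirg held none of these letters, and that of Malat1 held TGACG 3 times. A second entry for Meg3 and a second for Gas5 held none. A match is a description of these letters and not a measured binding site.

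Across the table, 2981 of 19364 genes tested (15.4%) were called between ANG II and control, with 2708 (14.0%) higher and 273 (1.41%) lower. Calls required an adjusted p under 0.05 from limma and a log2 fold change above 0.5 in either direction. Of the 7 long noncoding RNAs, 4 were called higher (Meg3, Gas5, Rian and Neat1) and 0 lower, by limma as by voom, and 0 were lower at an unadjusted p under 0.05. Levels are in FPKM (fragments adjusted for transcript length and sequencing depth), and fold changes are differences of log2(FPKM + 1), which understate changes of low genes. The median log2 fold change of all tested genes was 0.15, and 0.01 after median-of-ratios scaling, so fold changes are also given relative to that median. Mitochondrially encoded genes took 26.3 to 26.95% of fragments in control and 19.2 to 21.8% in ANG II. Depth ran from 14455654 to 16564828 fragments per library. The p-values measure the spread between these libraries, each numbered as a separate sample.

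**Figure D1:**
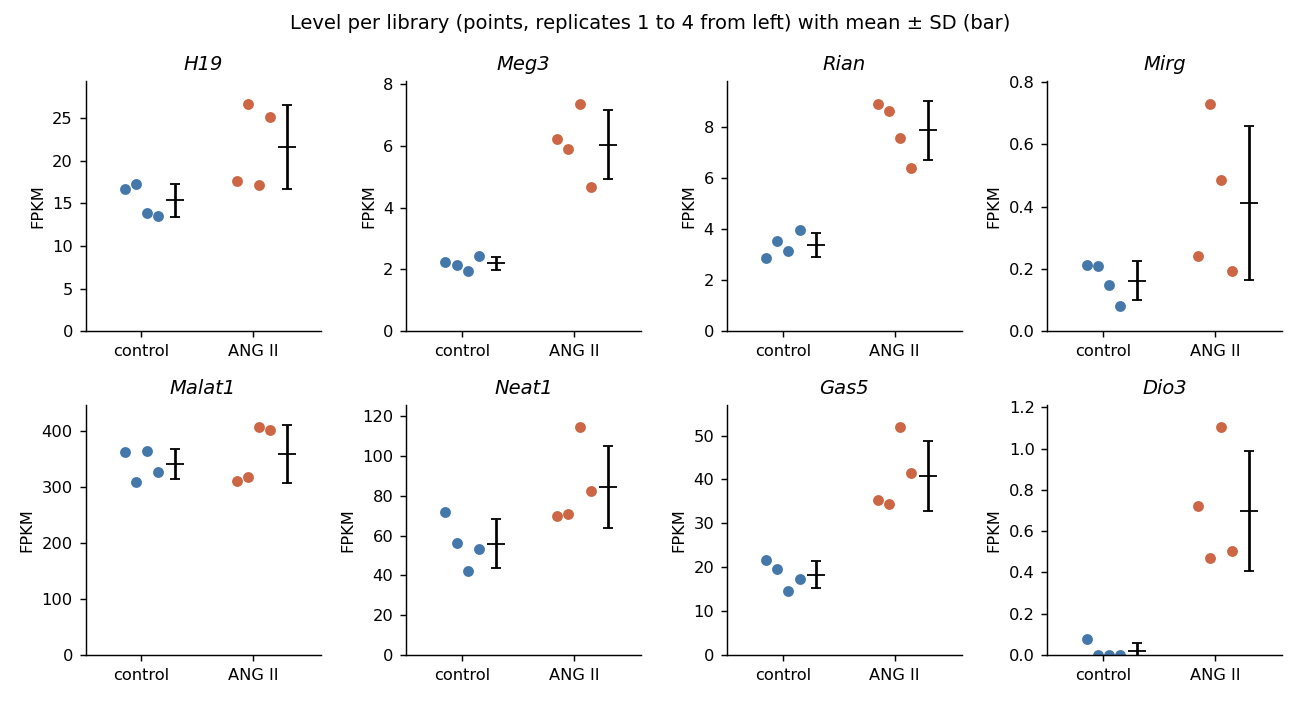
Level (FPKM, linear axes from 0) of the 7 long noncoding RNAs and of Dio3 in each of 4 control (blue) and 4 ANG II (orange) libraries, with mean ± SD in black. The groups do not overlap for Meg3, Rian, Gas5 and Dio3, and they overlap for H19, Mirg, Malat1 and Neat1.

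**Figure D2:**
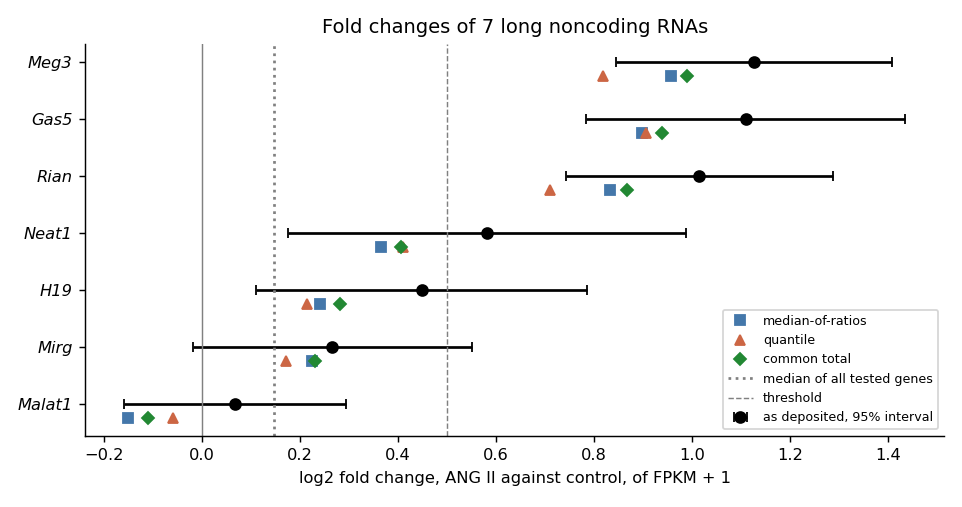
Log2 fold change of each RNA (black points, 95% intervals from limma) with its value under 3 other scalings of the libraries (colored symbols). Meg3, Gas5 and Rian stay above the 0.5 threshold in every scaling drawn, Neat1 falls below it, and Malat1 changes sign.

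Of the 3 long noncoding RNAs followed in the Dlk1-Dio3 domain, Meg3 and Rian rose in ANG II and Mirg was not called. Meg3 (ENSMUSG00000021268) has been studied as a growth-restraining RNA and, in the heart, as an RNA of fibroblasts. Its level was 2.25, 2.13, 1.97 and 2.44 FPKM in control 1 to 4 and 6.22, 5.89, 7.37 and 4.65 FPKM in ANG II 1 to 4. Every ANG II library was above every control library, with ANG II 3 the highest. The mean went from 2.20 ± 0.201 to 6.03 ± 1.12 FPKM (n = 4 each, SD). The log2 fold change was 1.13 (SE 0.126, 95% interval 0.84 to 1.41), or 0.98 relative to all genes, with an adjusted p of 1.56e-04 by limma. The levels rested on 361 fragments in the 4 control libraries together and 1011 in the 4 ANG II libraries.

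Rian (ENSMUSG00000097451), also known as Meg8, starts 32213 bases beyond the end of Meg3. Its level was 2.87, 3.53, 3.14 and 3.98 FPKM in control and 8.91, 8.61, 7.58 and 6.38 FPKM in ANG II. The groups were again apart, and the lowest ANG II value was that of ANG II 4, as for Meg3. The mean went from 3.38 ± 0.482 to 7.87 ± 1.15 FPKM (n = 4 each, SD) for a log2 fold change of 1.01 (SE 0.121, 95% interval 0.74 to 1.29), or 0.87 relative to all genes, with an adjusted p of 2.27e-04 by limma. About 302 and 717 fragments lay behind these values; they are approximate, because the Rian values did not give whole fragments with the transcript lengths used here.

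Mirg (ENSMUSG00000097391), the host of the largest of these microRNA groups, starts 68047 bases beyond Rian. It gave 0.212, 0.210, 0.148 and 0.0801 FPKM in control, which were 5, 5, 4 and 2 fragments. In ANG II it gave 0.242, 0.730, 0.486 and 0.192 FPKM, or 6, 19, 12 and 5 fragments. ANG II 1, 2 and 3 were above all control libraries, and ANG II 4 was within their range. The log2 fold change was 0.27 (SE 0.127, 95% interval -0.02 to 0.55, adjusted p = 0.14 by limma), or 0.12 relative to all genes. The summed fragments, 42 against 16, gave a depth-scaled ratio of 2.57 with an exact 95% counting interval of 1.42 to 4.90, which covers counting error only and not the spread between mice. The ratio of means of Meg3, 2.75, lay inside that counting interval.

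Within each library, the log2 ratio of Rian to Meg3 was 0.338, 0.703, 0.651 and 0.683 in control and 0.511, 0.540, 0.0411 and 0.446 in ANG II. The groups overlapped and differed by -0.21 (95% interval -0.56 to 0.14, exact two-sided permutation p = 0.2, adjusted p = 0.229 over 5 ratios), and by -0.09 without ANG II 3. The log2 ratio of Mirg to Meg3 went from -3.16 ± 0.448 to -3.69 ± 0.601 (n = 4 each, SD), a difference of -0.53 (95% interval -1.45 to 0.39, exact permutation p = 0.229, adjusted p = 0.229). Without ANG II 2 the difference was -0.81. The 0.1 FPKM added to each level lay within the control range of Mirg, 0.0801 to 0.212 FPKM. It held down the rise of Mirg more than that of Meg3, so the difference is not read as a lag of Mirg.

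Other genes of the domain were read from a list of 10, of which 8 were tested and 1 was called. Dio3, which encodes the deiodinase that inactivates thyroid hormone, lies 529607 bases beyond Mirg and was that gene. It was at 0.0795, 0, 0 and 0 FPKM in control and at 0.720, 0.469, 1.102 and 0.504 FPKM in ANG II. These values were 2, 0, 0 and 0 fragments against 19, 13, 29 and 14, so the groups were apart but the control level rested on 2 fragments. The depth-scaled ratio of fragments was 36.7, with an exact 95% counting interval of 9.82 to 309. The log2 fold change was 0.72 (SE 0.123, adjusted p = 0.00159 by limma). Other settings called a further gene of the list: Begain was higher with a pseudocount of 0.1, with voom on fragments and without control 2, and Slc25a47 was lower after quantile normalization. With a mean of at least 1 FPKM Dio3 was not tested, and 0 genes of the list were called. Dio3os, a long noncoding RNA on the opposite strand beside Dio3, was not on the list and was chosen after its values were seen. It went from 0.116 ± 0.0899 to 1.26 ± 0.482 FPKM (n = 4 each, SD), and was called higher (log2 fold change 1.00, adjusted p = 7.18e-04 by limma).

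Dlk1, the paternally transcribed growth factor gene 77664 bases from Meg3, was at 0 in the 4 control libraries and had 1 fragment in each of 2 ANG II libraries. Rtl1, a retrotransposon-derived gene on the strand opposite to Meg3, was at 0 in all 8. Begain, at the near edge of the domain, went from 0.335 ± 0.112 to 0.83 ± 0.0944 FPKM (n = 4 each, SD) without overlap but stayed under the fold threshold (log2 fold change 0.46, adjusted p = 0.00564 by limma). The other 6 tested, Wars, Wdr25, Bcl11b, Ppp2r5c, Slc25a29 and Slc25a47, had log2 fold changes from -0.24 to 0.07. The median over the 8 was 0.00, against 0.15 over all genes.

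**Figure D3:**
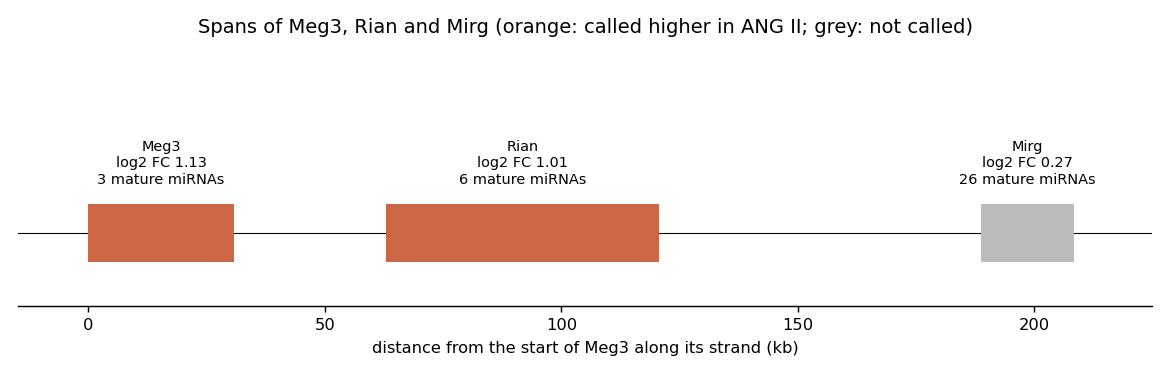
Spans of Meg3, Rian and Mirg in kb from the start of Meg3 along their common strand, each with its log2 fold change and the number of mature microRNAs that RefSeq places inside it. Meg3 (1.13) and Rian (1.01), drawn in orange, were called higher in ANG II, while Mirg (0.27), in grey, was not.

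H19, imprinted like Meg3, was at 16.7, 17.3, 13.8 and 13.5 FPKM in control and at 17.6, 26.7, 17.1 and 25.1 FPKM in ANG II. It was high in ANG II 2 and ANG II 4, and ANG II 3 lay just below control 2. The mean went from 15.4 ± 1.95 to 21.6 ± 4.98 FPKM (n = 4 each, SD). H19 (ENSMUSG00000000031) had a log2 fold change of 0.45 (SE 0.151, 95% interval 0.11 to 0.79, adjusted p = 0.0444 by limma), or 0.30 relative to all genes, so it passed the p threshold, as did 33.3% of all genes, but not the fold threshold. It was called without control 2 (0.51), ANG II 1 (0.53) or ANG II 3 (0.55). Under the 3 other scalings it was 0.24 (median-of-ratios), 0.21 (quantile) and 0.28 (common total), with adjusted p of 0.208 to 0.328 by limma.

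Igf2, the growth factor gene 72622 bases from H19, was low in both groups, with 0.399 ± 0.110 FPKM in control and 0.335 ± 0.109 in ANG II (n = 4 each, SD; log2 fold change -0.07, adjusted p = 0.652 by limma). The log2 ratio of H19 to Igf2 was 5.03, 5.68, 4.58 and 4.61 in control and 5.60, 5.55, 5.70 and 5.73 in ANG II, a narrow range. The difference was 0.67 (95% interval 0.03 to 1.31, exact permutation p = 0.0857, adjusted p = 0.143 over 5 ratios), with control 2 inside the ANG II range, and Igf2 rested on 7 to 16 fragments per library. Without control 2 the groups were apart, by 0.91, with an adjusted p of 0.0476 by the exact permutation test. Of 9 genes tested of 15 listed around H19, 3 were called higher and 1 lower. Lsp1, a leukocyte actin-binding protein, rose from 23.8 ± 3.40 to 61.9 ± 2.40 FPKM, Tnnt3, the fast skeletal troponin T, from 0.728 ± 0.274 to 3.29 ± 1.20, and Tspan32, a leukocyte tetraspanin, from 0.444 ± 0.122 to 1.31 ± 0.134 (n = 4 each, SD). Cdkn1c, an imprinted cell cycle inhibitor of the same chromosome region, fell from 6.87 ± 0.910 to 3.72 ± 1.07 FPKM (log2 fold change -0.76, adjusted p = 0.0062 by limma). Ins2 and Phlda2 were at 0 in all 8 libraries. The median log2 fold change of the 9 was 0.18. Tspan32 lost its call after quantile normalization and was not tested with a mean of at least 1 FPKM.

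In the insulin-like growth factor axis around Igf2, 7 of 15 tested genes of 16 listed were called higher and 0 lower, and the median log2 fold change was 0.42. Under the 3 other scalings 5 to 6 were called higher and 0 lower. Igf1, the ligand, rose from 10.3 ± 0.578 to 34.5 ± 1.97 FPKM (log2 fold change 1.65, adjusted p = 1.21e-06 by limma). The binding proteins Igfbp2 (0.0917 ± 0.0815 to 3.28 ± 0.365 FPKM) and Igfbp7 (113 ± 16.3 to 376 ± 52.0 FPKM, n = 4 each, SD) rose with log2 fold changes of 1.97 and 1.73. Among 29 tested of 39 listed imprinted genes across the genome, 5 were called higher and 2 lower, with a median of 0.21. Mest, an imprinted gene of fetal growth, rose from 6.91 ± 1.98 to 20.8 ± 4.80 FPKM and Peg3, an imprinted zinc finger gene, from 3.36 ± 1.15 to 6.61 ± 1.24 (n = 4 each, SD; log2 fold changes 1.47 and 0.82). Peg3 lost its call after quantile normalization (adjusted p = 0.066 by limma). Under the 3 other scalings the same list had 3 to 5 called higher and 5 lower. Without ANG II 3 it had 8 called higher and 2 lower.

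Malat1 and Neat1 end without the usual poly(A) tail in their full-length forms. Their ends are shown because the libraries were enriched on oligo(dT): both carry U-rich sequence and an A-rich tract in the RNA itself, in the last 100 bases up to the end of that tract. The windows are positions 6592 to 6691 of the 6983 bases of Malat1-201, and 20672 to 20771 of the 20771 bases of Neat1-201 (GENCODE M21). Capitals mark the A-rich tract and pairs of runs of 4 or more U (T in the letters) with 1 or 2 other bases between them; U-rich stretches with a shorter run were left in lower case. How the tract affected capture was not tested.
Malat1: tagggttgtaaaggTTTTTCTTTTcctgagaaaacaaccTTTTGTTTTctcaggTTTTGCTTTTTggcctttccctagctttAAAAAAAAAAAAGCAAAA
Neat1: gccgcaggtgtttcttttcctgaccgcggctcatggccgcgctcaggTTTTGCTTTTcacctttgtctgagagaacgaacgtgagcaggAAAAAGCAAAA

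Malat1 (ENSMUSG00000092341) was by far the most abundant of the 7, at 362, 309, 363 and 326 FPKM in control and 311, 317, 405 and 401 FPKM in ANG II. ANG II 1 and 2 lay at the low end of the control values, and ANG II 3 and 4 above all of them. The mean was 340 ± 26.9 in control and 359 ± 51.7 FPKM in ANG II (n = 4 each, SD). The log2 fold change was 0.07 (SE 0.101, 95% interval -0.16 to 0.29, adjusted p = 0.645 by limma), or -0.08 relative to all genes, and it was negative, between -0.15 and -0.06, under the 3 other scalings. Each value rested on 9794 to 13907 fragments.

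Neat1 (ENSMUSG00000092274) was at 71.9, 56.5, 42.2 and 53.3 FPKM in control and at 69.9, 70.9, 114 and 82.7 FPKM in ANG II. Control 1 lay above ANG II 1 and 2, so the groups overlapped, and ANG II 3 was far above the rest. The mean went from 55.95 ± 12.2 to 84.5 ± 20.8 FPKM (n = 4 each, SD). The log2 fold change was 0.58 (SE 0.181, 95% interval 0.18 to 0.99, adjusted p = 0.0326 by limma), or 0.43 relative to all genes, and Neat1 was called, although its exact two-sided permutation p was 0.0857. The call was lost under all 3 other scalings (log2 fold changes 0.37 to 0.41, adjusted p 0.118 to 0.165), without control 2, 3 or 4, and without ANG II 3 (0.43, adjusted p = 0.0734 by limma) or ANG II 4. It was also lost without the filter on low values (adjusted p = 0.0685 by limma). With the replicate number as a block the adjusted p was 0.083 by limma, again not called.

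The log2 ratio of Neat1 to Malat1 within a library was -2.33, -2.45, -3.10 and -2.61 in control and -2.15, -2.16, -1.82 and -2.28 in ANG II. Every ANG II library was above every control library, by 0.52 on average (95% interval 0.04 to 1.00). The exact permutation p was 0.0286, the smallest that 70 allocations can give, and the adjusted p over 5 ratios was 0.0714. With 1 FPKM added in place of 0.1 the difference was 0.51 and the adjusted p 0.0476 by the same exact permutation test, since 3 of the 5 ratios then had the smallest possible p, among them that of Mirg to Meg3, in which the added value exceeded every Mirg level. Without control 2 the difference was 0.58, with an adjusted p of 0.0476 by the exact permutation test. Its unadjusted p by that test stayed at 0.0286. The adjusted value fell because the ratio of H19 to Igf2 then also had the smallest possible p.

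The protein partners of these nuclear RNAs were read from lists. Of 20 paraspeckle protein genes, 0 were called in either direction by limma or by voom, and 12 were higher and 0 lower at an unadjusted p under 0.05. Of all tested genes, 33.3% passed even the adjusted p threshold at any fold change. Their median log2 fold change was 0.15, and that of the paraspeckle list 0.17. Relative to all genes, the list median was -0.049 with median-of-ratios scaling, 0.019 after quantile normalization and -0.034 with the common total. Of 24 nuclear speckle and SR splicing factor genes, 1 was called higher: Srsf9, a splicing factor, went from 11.9 ± 1.18 to 18.9 ± 1.21 FPKM (n = 4 each, SD; log2 fold change 0.63, adjusted p = 3.18e-04 by limma). Srsf9 fell below the fold threshold under the 3 other scalings, at 0.39 to 0.46. Among 15 tested of 17 listed genes around Malat1 and Neat1, 3 were called higher and 0 lower, with a median of 0.26. Ltbp3, a latent TGF-beta binding protein, rose from 20.4 ± 2.37 to 56.0 ± 7.66 FPKM, Frmd8, the gene next to Neat1, from 6.08 ± 0.484 to 11.4 ± 0.795 and Slc25a45, a mitochondrial carrier, from 3.83 ± 0.440 to 7.49 ± 1.55 (n = 4 each, SD). The call of Slc25a45 was lost after quantile normalization (log2 fold change 0.49).

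Gas5 begins with a 5' terminal oligopyrimidine run (a C followed by pyrimidines), the signal of RNAs whose translation follows growth signals, and the first 30 bases of its longest annotated transcript (GENCODE M21) are shown with the run in capitals.
Gas5 start: CTTTCggagctgtgcggcattctgagcagg

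Gas5 (ENSMUSG00000053332) was at 21.8, 19.5, 14.6 and 17.4 FPKM in control and at 35.3, 34.4, 51.9 and 41.5 FPKM in ANG II. The lowest ANG II library was well above the highest control library, and ANG II 3 was the highest, as for Meg3 and Neat1. The mean went from 18.3 ± 3.06 to 40.8 ± 8.02 FPKM (n = 4 each, SD). The log2 fold change was 1.11 (SE 0.146, 95% interval 0.78 to 1.43), or 0.96 relative to all genes, with an adjusted p of 3.76e-04 by limma. Gas5, Meg3 and Rian were the 3 of 7 whose groups did not overlap, against 28.7% of all tested genes that lay apart in that direction and 5.06% in the other, and each had the smallest exact permutation p, 0.0286.

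Of 17 tested snoRNA host genes other than Gas5 (22 listed), 9 were called higher and 0 lower. Their median log2 fold change was 0.52, and 5 to 6 were called higher under the 3 other scalings. Zfas1 rose from 4.05 ± 1.07 to 10.6 ± 1.46 FPKM (log2 fold change 1.21), Snhg18 from 3.04 ± 0.997 to 6.93 ± 0.467 (1.01) and Snhg5 from 2.50 ± 0.663 to 5.27 ± 0.349 (0.86; n = 4 each, SD). Snhg14, the imprinted snoRNA host of another chromosome region, was at 5.26 ± 1.18 and 5.42 ± 0.897 FPKM, and Eif4a2, a protein-coding host, had a log2 fold change of -0.11. The log2 ratio of Gas5 to the mean of 11 noncoding hosts was 2.54, 2.63, 2.61 and 2.69 in control and 2.84, 2.86, 3.18 and 2.92 in ANG II. These did not overlap and differed by 0.33 (95% interval 0.13 to 0.53, exact permutation p = 0.0286, adjusted p = 0.0714 over 5 ratios). With 1 FPKM added the difference was 0.48 and the adjusted p 0.0476 by the same exact permutation test, and without control 2 they were 0.34 and 0.0476. In both, more of the 5 ratios had the smallest possible p, which lowered the adjusted value. The 11 hosts averaged 1.20 to 7.78 FPKM, so the added 1 FPKM held down their rise more than that of Gas5.

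Genes of the processes known to act on the Gas5 RNA were also listed. Of 28 genes for 5'TOP translation messenger RNAs, 7 were called higher and 0 lower, with a median of 0.42. Eef1a1, the elongation factor that brings tRNA to the ribosome, rose from 795 ± 82.2 to 1923 ± 200 FPKM, Rpl3, a ribosomal protein, from 100 ± 15.2 to 203 ± 26.0 and Pabpc1, the poly(A)-binding protein, from 104 ± 6.74 to 206 ± 15.7 (n = 4 each, SD; log2 fold changes 1.27, 1.02 and 0.97). The call count was 3 to 4 under the 3 other scalings. Of 18 nonsense-mediated decay factors, 0 were called in either direction by limma and 1 by voom, and 8 were higher and 0 lower at an unadjusted p under 0.05. Limma called 2 higher without control 1, and 1 without control 2, without ANG II 3 or with a pseudocount of 0.1. The median of the decay factors was 0.17 against 0.15 over all genes, of which 33.3% passed even the adjusted p threshold. Relative to all genes, their median was -0.041 to -0.026 under the 3 other scalings.

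**Figure D4:**
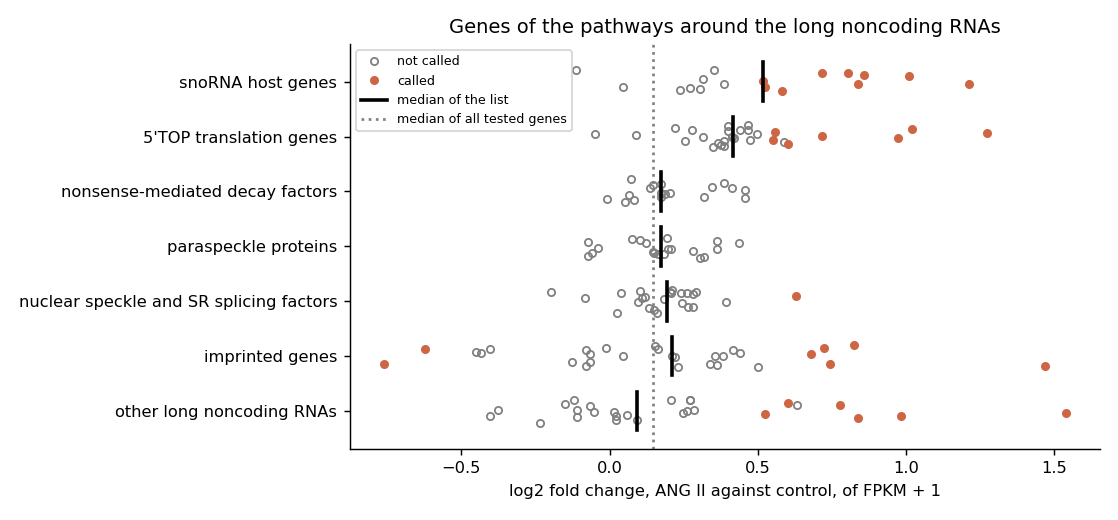
Log2 fold changes (each point 1 gene, orange where called) of 7 gene lists, with each list's median as a black bar and the median of all tested genes, 0.15, as a dotted line. The snoRNA host and 5'TOP lists have medians of 0.52 and 0.42, while the paraspeckle and decay lists lie at 0.17.

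**Figure D5:**
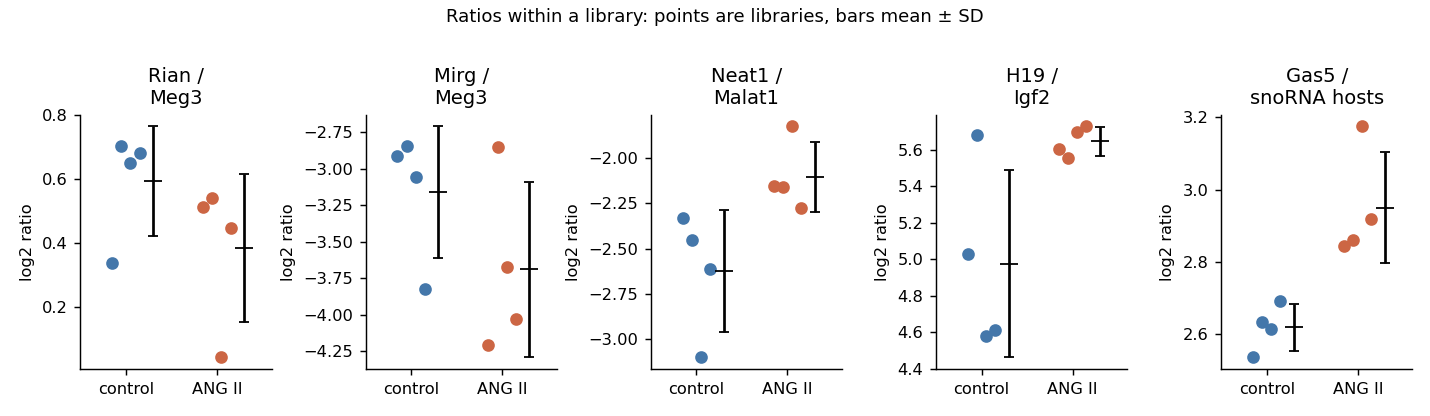
Log2 ratio of 5 pairs of RNAs in each of 4 control (blue) and 4 ANG II (orange) libraries, with mean ± SD in black, and axes that do not start at 0. Neat1 to Malat1 and Gas5 to the snoRNA hosts are apart, and the other ratios overlap.

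Of 27 tested genes of 47 listed other long noncoding RNAs, 6 were called higher and 0 lower, and the median log2 fold change was 0.09. The counts were 4 and 1 with median-of-ratios scaling and after quantile normalization, and 5 and 0 with the common total. Dnm3os, the host of the miR-199 and miR-214 cluster, rose from 2.27 ± 0.791 to 8.80 ± 3.13 FPKM (log2 fold change 1.54, n = 4 each, SD). Ptprv, which is named for a receptor-type protein tyrosine phosphatase, rose from 0.328 ± 0.185 to 1.67 ± 0.694 FPKM (0.98). Snhg12 rose from 1.83 ± 0.274 to 4.10 ± 0.939 FPKM (0.84). Snhg12 and Snhg1 were called in both this list and the snoRNA host list. Hotair and Terc were among 5 at 0 in all 8 libraries, and so was Rmrp, which like Terc lacks a poly(A) tail.

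The order of levels depends on the transcript length used. For 6 of the 7 RNAs the deposited values gave whole fragments, within 0.1, with the mean length of the gene's transcripts, and for Rian they did not. Among these 6 the longest transcript exceeded that mean by a factor of 1.84 for H19 to 5.38 for Meg3. By deposited FPKM in control, Malat1 was followed by Neat1, Gas5, H19, Rian, Meg3 and Mirg, and the ranges of Gas5 and H19 overlapped (14.6 to 21.8 and 13.5 to 17.3 FPKM). Per length of the longest transcript, H19 (8.36 FPKM) came before Gas5 (5.31 FPKM) in control, and both stood at 11.8 FPKM in ANG II. Malat1 stayed first on either scale and Mirg last.

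Genes with the most similar pattern to each RNA were found from the root mean square difference of library-by-library deviations of log2(FPKM + 1), over 8 libraries and the 12946 other genes that averaged 1 FPKM or more (12947 for Mirg), as a description. Nearest to Meg3 were Clic1, Cd248 and Mrc1 (differences 0.0836 to 0.0928), and Rian ranked 73 of 12946. Rian had Tlr7, Ildr2 and Txndc5 nearest (0.0974 to 0.105), with Meg3 at rank 105. For Gas5 the nearest were Rasa4, Zfas1 and Clec4a1 (0.126 to 0.129), with Meg3 at rank 141 and Neat1 at 537. H19 had Cend1, Plagl1 (an imprinted zinc finger gene) and Zfp61, and Mirg had Rpgrip1l, Dyrk1b and Nabp2. Malat1 had Akap8l, Lurap1 and Ssbp1, and Neat1 had Cmah, Rpl38 and Cyb561d2, with Malat1 at rank 4614 from Neat1. Every Mirg level was below the 1 FPKM added, which keeps its deviations small, so its neighbours are named only and its distance to Meg3 is not read. The measure takes in the difference between the groups, so it is no measure of likeness apart from the fold change.

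Markers of several cell types differed between the same libraries. In bulk tissue, more cells of a type and more RNA per cell cannot be told apart. Fibroblast markers were called higher for 9 of 10 (summed level 569 to 847 FPKM in control, 3444 to 4098 in ANG II), led by Postn, Col1a1 and Col1a2 with log2 fold changes of 4.30, 3.25 and 3.13; 7 to 8 were called under the 3 other scalings. Macrophage markers were called higher for 9 of 10 (305 to 382 against 679 to 947 FPKM), led by Cd68, Adgre1 and C1qb, with a median of 1.36. Cardiomyocyte markers, all present, were called lower for 2 of 10, Tnni3 (-0.58) and Myh6 (-0.55), and summed to 53163 to 54368 against 40299 to 42651 FPKM. Both of these lost their call after quantile normalization, after which 1 other of the list was called lower, while 6 were with median-of-ratios scaling and 5 with the common total. Leaving out 1 library gave 4 called lower without ANG II 3, and 3 without control 1, control 4 or ANG II 4. No marker of these 3 lists was at 0 in all libraries, and their part in the changes of Meg3, Rian, Gas5 and Neat1 was not tested.

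Other cells and states were read from the same kind of list. All 8 dividing cell markers were called higher (6.70 to 14.2 against 32.6 to 78.8 FPKM), led by Top2a, Ccna2 and Cdk1. Of 7 erythroid markers, 6 were called higher (96.8 to 487 against 582 to 2091 FPKM), led by Hbb-bt, Hbb-bs and Alas2; the globin genes have close copies that can share reads. Under the 3 other scalings 5 of the erythroid and all 8 dividing cell markers were called higher. Lymphocyte markers gave 3 of 9 called higher (Nkg7, Trac and Cd4), endothelial markers 2 of 10 (Vwf and Pecam1), immediate early genes 2 of 10 (Junb and Fos) and adipocyte markers 0 of 5 (0 also by voom and at an unadjusted p under 0.05). Smooth muscle and pericyte markers gave 4 of 10 higher (Cnn1, Cspg4 and Pdgfrb first) and 1 lower (Abcc9), with 1 to 2 higher under the 3 other scalings, where Notch3 and Pdgfrb were not called. Atrial markers gave 3 of 6 (Nppa, Dkk3 and Sln), with summed levels of 25.7 to 82.8 against 223 to 374 FPKM. Within that sum Nppa went from 8.61 ± 1.86 to 141 ± 22.9 FPKM (n = 4 each, SD). The paper lists its product, atrial natriuretic peptide, among genes activated in cardiomyocytes that react to angiotensin II. Myl7 and Myl4 were not called (log2 fold changes 2.38 and 2.23, adjusted p = 0.0557 by limma for each). Atrial tissue in the samples was not tested. Skeletal muscle markers gave 2 of 5 (Tnnt3 and Acta1), with Myh4 at 0. Ckm, the muscle creatine kinase on the skeletal list, had a log2 fold change of -0.39 (adjusted p = 0.00384 by limma), short of the fold threshold, and 1 skeletal marker, Ckm, was called lower under each of the 3 other scalings. Calls of Vwf, Pecam1 and Pdgfrb were lost under the 3 other scalings, and those of Nkg7, Cd4, Fos and Cspg4 after quantile normalization. The call of Sln was lost with median-of-ratios scaling, after quantile normalization, without the filter on low values, with a pseudocount of 0.1 and in 4 of 8 fits that left out 1 library. The atrial list had 5 called higher with voom, and 2 higher and 1 lower with median-of-ratios scaling and after quantile normalization, and the lymphocyte list had 5 higher with voom and 6 without control 1. Leaving out 1 library also ended the calls of Vwf (ANG II 2), Pecam1 (ANG II 1 or 3), Fos (control 4) and Nkg7 (ANG II 4). The part of these lists in the long noncoding RNA results was not tested.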

How the data were processed

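Left ventricular RNA, enriched on oligo(dT) beads, was sequenced as paired reads in 4 control and 4 ANG II libraries, grouped by their treatment labels. For these libraries the authors deposited 1 table of FPKM values, with no pooling. Their processing notes name HISAT, Bowtie2 and RSEM, with no version. The build, annotation and use of strand were not given in the sources used here. The study's methods describe more samples than these 8 libraries, and only these were analysed here.

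Genes were matched to GENCODE M21 (GRCm38), in which 55141 of 55679 IDs were found. Fragments were recovered from the FPKM steps and the mean transcript length. Below 60 fragments, 99.1% of values were whole (within 0.02) for genes with 1 transcript and 95.8% for genes with several. Intervals on fragments cover counting error only.

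The comparison used limma 3.58.1 in R 4.3.3 (variance trend) on log2(FPKM + 1) for genes averaging 0.1 FPKM or more, with no covariate. Two-sided p-values received a Benjamini-Hochberg adjustment across 19364 genes. Genes were called at an adjusted p under 0.05 and an absolute log2 fold change above 0.5. The 5 log2 ratios (0.1 FPKM added) were tested by exact permutation of the libraries (two-sided, 70 allocations) and adjusted over the 5; their 95% intervals use the pooled SD. The other steps used scipy 1.17.1, pandas 2.3.3, numpy 2.4.6 and matplotlib 3.10.9 under Python 3.11.15.

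The 7 members and the gene lists were chosen with earlier results of these data known. Named are the members, genes of the 3 loci and the 3 nearest patterns. Up to 3 called genes per list with the largest fold change are also named. Dio3os, Abcc9, Notch3, Snhg1 and the uncalled Snhg14, Eif4a2, Hotair, Terc, Rmrp, Ckm, Myh4, Myl7 and Myl4 were named after their values were seen. Alternatives changed the pseudocount, the filter, the scaling, the variance trend and the replicate block, left out each library in turn, or, chosen after seeing the data, applied voom to recovered fragments.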

Additional observations from a re-analysis of the deposited data

Results flagged for a closer look

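The log2 ratio of Rian to Meg3 in control 1, 0.338, lay far below the other 3 control libraries, which ran from 0.651 to 0.703. The gap was 0.857 of the range of the group, above the 95% critical value of Dixon's test for 4 values. It was the 1 case among 26 groups examined, and chance alone gives about 1 in 20. The ratio rested on 88 Meg3 and about 61 Rian fragments in that library.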

How the results depend on the processing

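Meg3, Rian and Gas5 were called in all 17 alternative fits, with log2 fold changes of 0.82 to 1.44, 0.71 to 1.21 and 0.90 to 1.19. Mirg was called in 0 of 16 fits, and it was not tested with a mean of at least 1 FPKM. Its log2 fold change was 0.87 with a pseudocount of 0.1 and 1.14 with voom on fragments. Without 1 library it ran from 0.16 (without ANG II 2) to 0.34 (without ANG II 4). Malat1 reversed to -0.15 (median-of-ratios), -0.058 (quantile) and -0.11 (a common total without mitochondrial and the top 10 genes). Neat1 lost its call without the filter (0.58, adjusted p = 0.0685 by limma), under these 3 scalings (0.37, 0.41 and 0.41), and with the replicate number as a block (0.58, adjusted p = 0.083); without 1 library it ran from 0.43 to 0.71. H19 ran from 0.34 to 0.55 without 1 library and was called in 3 of those 8 fits. The count of called genes was 2481, 2399 and 2495 under the 3 scalings, 2968 with the block, 2722 to 3078 without 1 library and 3985 with voom. The higher share was 90.8% of calls as reported, 68.5% with median-of-ratios, 58.9% with quantile and 74.3% with the common total. The ratios of Mirg to Meg3, Neat1 to Malat1 and Gas5 to the snoRNA hosts passed an adjusted p of 0.05 with 1 FPKM added (-0.86, 0.51 and 0.48), which exceeds every Mirg level. Without 1 library the ratios differed by -0.29 to -0.09 (Rian to Meg3), -0.81 to -0.36 (Mirg to Meg3), 0.36 to 0.62 (Neat1 to Malat1), 0.54 to 0.91 (H19 to Igf2) and 0.26 to 0.37 (Gas5). The last 3 passed without control 2 (adjusted p = 0.0476, exact permutation test), where all 3 had the smallest possible p. None passed without any other library. Same-numbered libraries shared deviations no more (correlations -0.0433 to 0.0921) than differently numbered ones (-0.118 to 0.148). This check cannot exclude a pairing of the samples, which the labels do not state. The block changed no other member's call. Pairing within numbers leaves too few allocations for the exact test of a ratio to pass. Few fragments limit Mirg, Dio3 and Igf2.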
